A study of Mus musculus with 12 samples.

Results

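The genes described here are those whose symbol starts with Rgs or Gpr followed by a digit, which is how regulators of G-protein signalling and many G-protein-coupled receptors were named. Of the 24108 genes listed, 114 met this rule, 23 of them Rgs genes and 91 Gpr genes. The names chose the members, and no measured value entered this rule, though it was set with earlier results of these data known. The Gpr symbols hold adhesion receptors, orphan receptors, receptors of lipids and metabolites, and several proteins of intracellular membranes that are receptors by name alone.

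G-protein-coupled receptors switch on heterotrimeric G proteins by making their alpha subunit exchange GDP for GTP. RGS proteins speed up the hydrolysis of that GTP and so shorten the signal, and each RGS subfamily prefers certain alpha subunits. Adhesion receptors, renamed Adgr, carry a long extracellular part that binds matrix or neighbouring cells. In the adult subventricular zone (SVZ), contact of neural stem cells with blood vessels is one of the inputs known to hold them in quiescence, the resting state in which they do not divide.

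Messenger RNA was sequenced in neural stem/progenitor cells (NPCs) grown from the SVZ of P9 to P12 mice labelled C57BL/6, in 4 groups of 3 libraries. These were p53-/- NPCs co-cultured with endothelial cells, p53-/- NPCs kept alone, p53+/+ NPCs co-cultured in the same way and p53+/+ NPCs kept alone. For co-culture, NPCs spent 48 h on top of primary brain microvascular endothelial cells (bmvECs) grown as a monolayer, and were then detached by selective trypsinization, and NPCs alone were kept on laminin. According to the methods, p53-/- NPCs were p53LoxP/LoxP NPCs infected with an adenovirus that expresses Cre from the ubiquitous CMV promoter, and controls received a virus with the promoter only. The labels call the p53+/+ cells wild type. All groups thus come from passaged cultures in EGF and bFGF. The 3 libraries of a group carry the experiment numbers 17_9, 25_9 and 1_10, and library values are given below in that order. No source says that the experiments used separate animals, so the p-values measure the spread between these cultures.

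Libraries held 16509710 to 22245224 counts. Trp53, the targeted gene, had 11.7 to 19.3 normalized CPM (its counts scaled to the size of the library) in p53-/- libraries, against 61.8 to 108.6 CPM in p53+/+ libraries, and the groups did not overlap. Endothelial transcripts were present in co-culture: the endothelial cadherin Cdh5 had 18.8 to 37.2 CPM in co-culture libraries of both genotypes, against 0 to 0.0993 CPM in libraries of NPCs alone. Summed over 28 endothelial markers, the level was 233.5 to 299.1 CPM in p53-/- co-cultures, 115.3 to 201.9 CPM in p53-/- NPCs alone, 257.9 to 383.8 CPM in p53+/+ co-cultures and 127 to 197.4 CPM in p53+/+ NPCs alone. Sox17 and Mmrn2 were at 0 in NPCs alone of both genotypes, and Tie1 was at 0 in p53+/+ NPCs alone. The part of endothelial RNA in the changes below was not tested, and members known from endothelial, mural or microglial cells are named as such. The 2 libraries of NPCs alone from experiment 17_9 stood apart, with 1312 CPM for p53-/- and 825.7 CPM for p53+/+ summed over 18 mural and fibroblast markers, against 216.8 to 312.6 CPM in the other 10 libraries. In bulk libraries, fewer cells with a transcript and less of it per cell cannot be told apart.

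Of the 114 members, 59 had enough counts to be tested (17 Rgs and 42 Gpr genes), and these averaged 0.339 to 532 CPM. The other 55 members, 6 Rgs and 49 Gpr genes, were too low: 11 had no count at all, among them Rgs1, Rgs18, Gpr18 and Gpr119, and the remaining ones had 1 to 65 counts over the 12 libraries together. Genes of immune receptors such as Gpr34, Gpr65, Gpr84, Gpr132 and Gpr183 were in this last set, with totals of 4 to 25 counts.

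The main question of the design is what contact with endothelial cells does to NPCs and whether p53 is needed for it. A gene is called higher or lower where its Benjamini-Hochberg adjusted p in the quasi-likelihood test of edgeR, over all genes tested, is under 0.05. Culture on bmvECs changed many of the tested members, mostly upwards. In p53-/- NPCs 21 of the 59 were higher in co-culture (35.6%, against 18.8% of all 13745 genes tested) and 6 were lower (10.2%, against 17.0% of all genes). In p53+/+ NPCs 26 were higher (44.1%, against 21.2% of all genes) and 7 were lower (11.9%, against 18.3%). The median log2 fold change of the members was 0.53 in p53-/- and 0.41 in p53+/+ NPCs, against -0.01 in p53-/- and 0.00 in p53+/+ NPCs over all genes tested. The upward balance lay in the Gpr genes, with 16 higher and 2 lower of 42 in p53-/- NPCs, and 20 higher and 3 lower in p53+/+ NPCs. Rgs genes went both ways, with 5 higher and 4 lower of 17 in p53-/- NPCs, and 6 higher and 4 lower in p53+/+ NPCs. Without the members known from endothelial, mural or microglial cells, 17 were higher and 5 lower of 52 in p53-/- NPCs, and 22 higher and 6 lower in p53+/+ NPCs. Without experiment 17_9, 15 were higher and 5 lower of 58 in p53-/- NPCs, and 20 higher and 6 lower in p53+/+ NPCs. With the experiment as a block, 27 were higher and 8 lower in p53-/- NPCs, against 24.3% and 23.2% of all genes, and 28 higher and 10 lower in p53+/+ NPCs, against 26.2% and 24.1% of all genes. Without p53-/- co-culture 17_9, 12 were higher and 3 lower in p53-/- NPCs. In p53+/+ NPCs 17 were higher without p53+/+ co-culture 17_9, p53+/+ co-culture 25_9 or p53+/+ alone 1_10, and 4 were lower without either of those co-culture libraries. Without experiment 25_9, 12 were higher and 2 lower in p53-/- NPCs and 11 higher and 2 lower in p53+/+ NPCs, and without experiment 1_10 3 were lower in p53-/- NPCs. The shares of all genes called in these fits without a library or an experiment are not given here. A lower count in them thus does not show that members fell relative to all genes.

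The same members were often called in both genotypes. Higher in both were 19 members (15.0% of all genes were), which are 19 of the 21 called in p53-/- and 19 of the 26 called in p53+/+ NPCs. Lower in both were 5 members, Rgs3, Rgs8, Rgs10, Gpr125 and Gpr180 (11.8% of all genes were). With the block, Rgs16 and Rgs19 were also lower in both, and Rgs9bp, Gpr50, Gpr124 and Gpr176 also higher in both. None was called in opposite directions by edgeR, and 55 of the 59 had the same sign of log2 fold change in both.

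**Figure D1:**
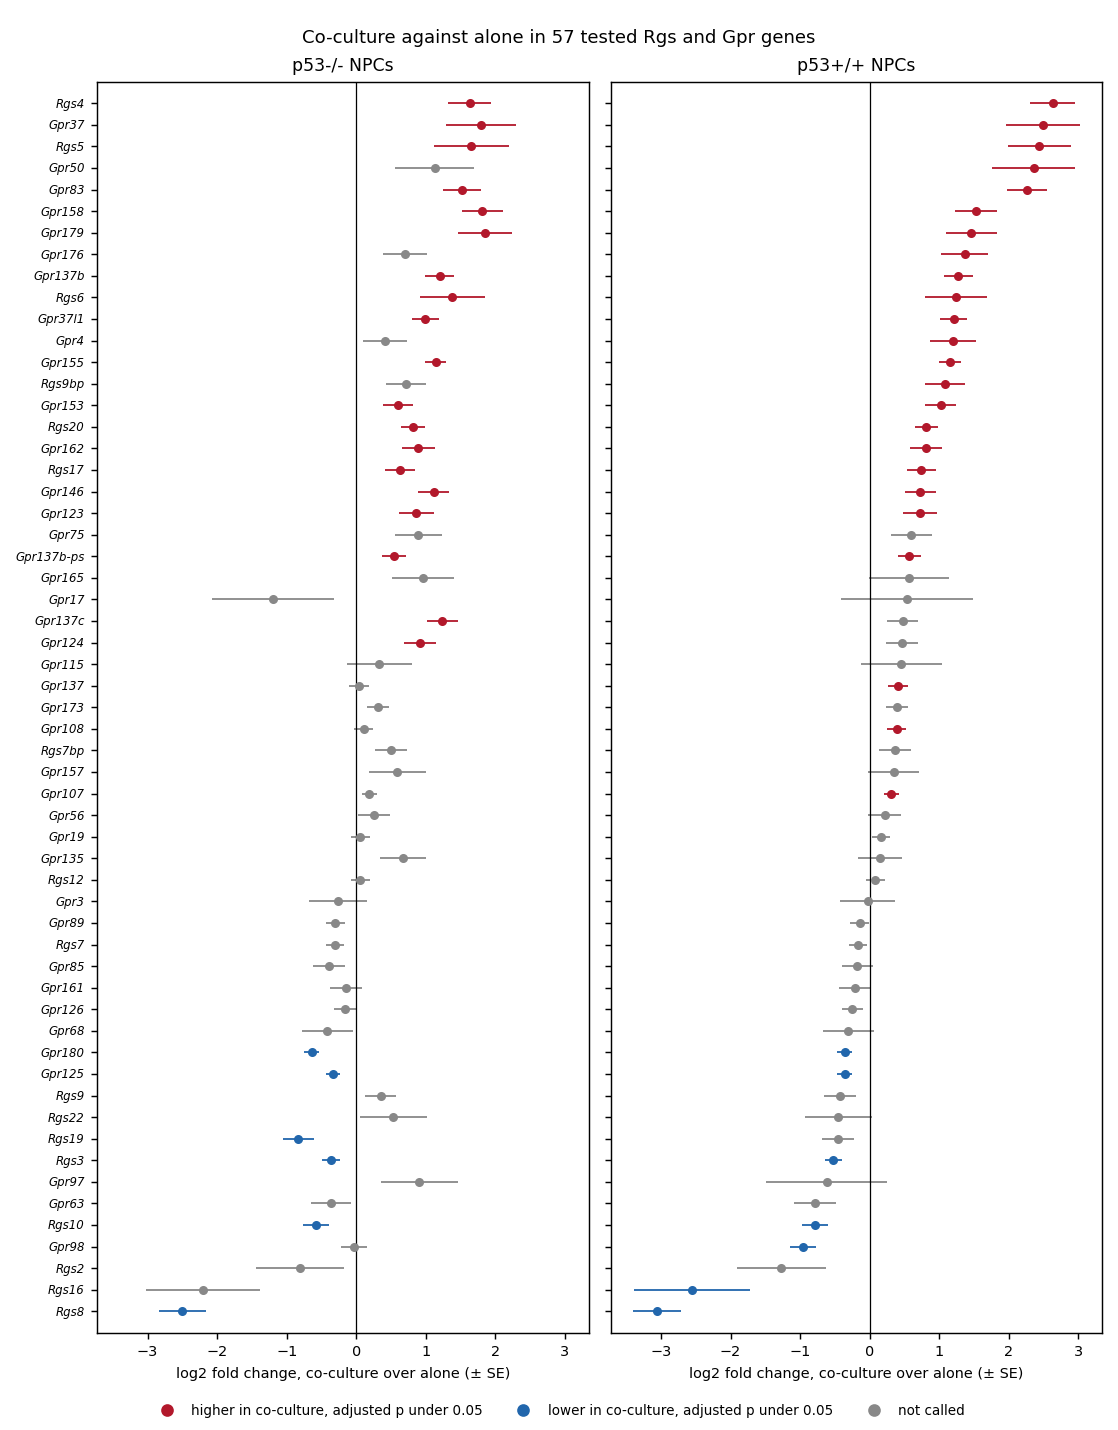
Log2 fold change of co-culture over NPCs alone (x axis, points, with bars of 1 standard error) for 57 tested Rgs and Gpr genes, in p53-/- NPCs (left) and p53+/+ NPCs (right), ordered by the value in p53+/+ NPCs. Red points are members called higher, blue ones lower and grey ones not called; Gpr116, with 1 count in each group of NPCs alone, is left out, and Rgs8 is lowest in both panels.

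The R4 subfamily holds small RGS proteins that act on Gi and Gq alpha subunits, and its called members went both ways. Of its 10 genes 6 were tested. Rgs8, known from cerebellar Purkinje neurons, had 16.9, 16.1 and 21.1 CPM in p53-/- co-cultures, against 154, 74.5 and 78.1 CPM in p53-/- NPCs alone. In p53+/+ co-cultures it had 11.3, 12.1 and 20.8 CPM, against 162, 81.5 and 125 CPM in p53+/+ NPCs alone. The co-cultures lay far below the NPCs alone in both genotypes, without overlap. Rgs8 fell by 2.50 ± 0.33 on the log2 scale (SE, adjusted p = 0.000164) in p53-/- and by 3.06 ± 0.34 (adjusted p = 3.14e-05) in p53+/+ NPCs.

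Rgs16, an inducible regulator of Gi and Gq signals whose gene is the next protein-coding one beside Rgs8 on chromosome 1, was also lower in co-culture, but its level in NPCs alone rested on 1 experiment. It had 59.6, 52.3 and 54.1 CPM in p53-/- co-cultures, against 612, 82.0 and 74.1 CPM in p53-/- NPCs alone. In p53+/+ co-cultures it had 48.8, 46.5 and 57.1 CPM, against 692, 96.5 and 109 CPM in p53+/+ NPCs alone. The libraries of experiment 17_9 alone were thus several times above the others, and those were the libraries with high mural and fibroblast transcripts. Its log2 fold change was -2.21 ± 0.82 (adjusted p = 0.0505) in p53-/- and -2.56 ± 0.83 (adjusted p = 0.0267) in p53+/+ NPCs. With the experiment as a block these were -1.49 (adjusted p = 0.0483) in p53-/- and -1.84 (adjusted p = 0.0180) in p53+/+ NPCs, and without experiment 17_9 the co-cultures were still lower by a log2 difference of -0.54 (adjusted p = 0.0322) in p53-/- and -0.97 (adjusted p = 0.00172) in p53+/+ NPCs. Leaving out only the p53+/+ library of 17_9 alone gave -1.02 (adjusted p = 0.249), and leaving out any single p53+/+ co-culture library gave adjusted p of 0.0568 to 0.0841.

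Rgs2, which acts mainly on Gq, had the same feature and no call. It had 8.06, 9.14 and 10.5 CPM in p53-/- co-cultures, against 29.9, 8.10 and 10.4 CPM in p53-/- NPCs alone, and 7.68, 8.46 and 4.90 CPM in p53+/+ co-cultures, against 38.3, 7.6 and 5.39 CPM in p53+/+ NPCs alone. Only the 17_9 libraries of NPCs alone stood above the rest, and without that experiment the log2 fold change was 0.10 in p53-/- and 0.06 in p53+/+ NPCs. Rgs3, a further R4 member, had 31.0, 35.2 and 31.5 CPM in p53-/- co-cultures, against 41.7, 45.1 and 38.8 CPM in p53-/- NPCs alone. In p53+/+ NPCs it had 31.3, 38.8 and 32.2 CPM in co-culture, against 45.4, 55.1 and 46.2 CPM alone. Rgs3 fell by 0.36 ± 0.13 (adjusted p = 0.0412) in p53-/- and by 0.52 ± 0.13 (adjusted p = 0.00614) in p53+/+ NPCs on the log2 scale, with no overlap of libraries in either genotype. Without experiment 17_9 its log2 fold change in p53-/- NPCs was -0.31 and not called (adjusted p = 0.216).

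Rgs4 and Rgs5 went the other way. Rgs4, a regulator of Gi and Gq signals in brain that is also known from mural cells, had 9.36, 10.5 and 5.20 CPM in p53-/- co-cultures, against 2.33, 3.19 and 2.55 CPM in p53-/- NPCs alone. Among p53+/+ NPCs it had 17.8, 14 and 9.11 CPM in co-culture, against 2.81, 1.89 and 1.93 CPM alone. The log2 fold change was 1.63 ± 0.31 (adjusted p = 0.00177) in p53-/- and 2.63 ± 0.32 (adjusted p = 6.24e-05) in p53+/+ NPCs. Rgs5, a marker of pericytes, rose by 1.66 ± 0.54 (adjusted p = 0.0302) in p53-/- and 2.44 ± 0.46 (adjusted p = 0.00122) in p53+/+ NPCs, from few counts: 4 to 10 per library in p53-/- co-cultures, against 1 to 4 in p53-/- NPCs alone, and 18 to 22 in p53+/+ co-cultures, against 2 to 5 in p53+/+ NPCs alone. Without experiment 17_9, Rgs5 had 1.30 in p53-/- NPCs and was not called (adjusted p = 0.258). Of 9 tested mural and fibroblast markers, 3 rose and 3 fell in p53-/- co-cultures, and 3 rose and 2 fell in p53+/+ co-cultures. The pericyte marker Higd1b was at 0 in every group and Vtn was at 0 in NPCs alone, and the part of mural RNA in the rise of Rgs4 and Rgs5 was not tested.

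The 4 genes Rgs8, Rgs16, Rgs5 and Rgs4 form 2 pairs of neighbours on chromosome 1, the first pair lower and the second higher in co-culture. Their promoters are shown because the members of a pair moved in the same direction, so the pairs were picked by their values in these data. Without the block, Rgs16 was not called in p53-/- NPCs. Gpr56 and Gpr97, also neighbours and both tested, were called in neither genotype. The sequences are from RefSeq in build GRCm38.p6, run 5′ to 3′ on the strand of the gene, and cover 250 bases before to 50 bases after the annotated start. Capitals mark TGACG on either strand, the core of the cAMP response element, and in Rgs5 a p53 half-site. The windows are chr1:153652787-153653086 (plus strand) for Rgs8, chr1:153740103-153740402 (plus) for Rgs16, chr1:169655251-169655550 (plus) for Rgs5 and chr1:169747593-169747892 (minus) for Rgs4.
Rgs8: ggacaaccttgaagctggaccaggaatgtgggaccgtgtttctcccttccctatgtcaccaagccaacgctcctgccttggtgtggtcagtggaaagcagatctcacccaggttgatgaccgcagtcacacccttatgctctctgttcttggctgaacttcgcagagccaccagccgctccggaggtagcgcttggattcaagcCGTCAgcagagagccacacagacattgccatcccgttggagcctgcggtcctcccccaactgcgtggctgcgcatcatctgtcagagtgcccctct
Rgs16: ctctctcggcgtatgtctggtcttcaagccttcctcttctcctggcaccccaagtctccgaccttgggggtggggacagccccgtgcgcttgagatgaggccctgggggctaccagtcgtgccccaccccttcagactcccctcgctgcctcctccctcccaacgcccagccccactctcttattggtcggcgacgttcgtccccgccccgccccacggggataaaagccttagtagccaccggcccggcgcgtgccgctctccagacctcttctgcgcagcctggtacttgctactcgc
Rgs5: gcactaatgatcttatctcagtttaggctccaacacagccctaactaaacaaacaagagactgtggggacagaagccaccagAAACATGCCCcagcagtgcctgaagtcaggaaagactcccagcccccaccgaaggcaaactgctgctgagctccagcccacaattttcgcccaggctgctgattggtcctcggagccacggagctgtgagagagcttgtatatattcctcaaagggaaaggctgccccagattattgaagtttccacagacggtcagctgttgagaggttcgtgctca
Rgs4: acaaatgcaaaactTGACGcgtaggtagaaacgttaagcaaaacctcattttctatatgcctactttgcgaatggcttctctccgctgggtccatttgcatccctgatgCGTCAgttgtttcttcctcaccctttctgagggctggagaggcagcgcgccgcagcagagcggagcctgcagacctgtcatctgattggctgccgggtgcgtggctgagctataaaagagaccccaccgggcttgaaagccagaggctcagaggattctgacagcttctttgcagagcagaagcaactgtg
TGACG was found once in the Rgs8 window shown, which is the most upstream of 3 annotated starts of that gene, and at 2 places in that of Rgs4, and it was not found in those of Rgs16 and Rgs5. Of all 32851 promoters of this length, 20.8% hold it and 8.36% hold a p53 half-site, and no p53 half-site in a member's promoter overlapped a TGACG. The letters of a motif in a window say nothing on whether a factor binds there.

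**Figure D2:**
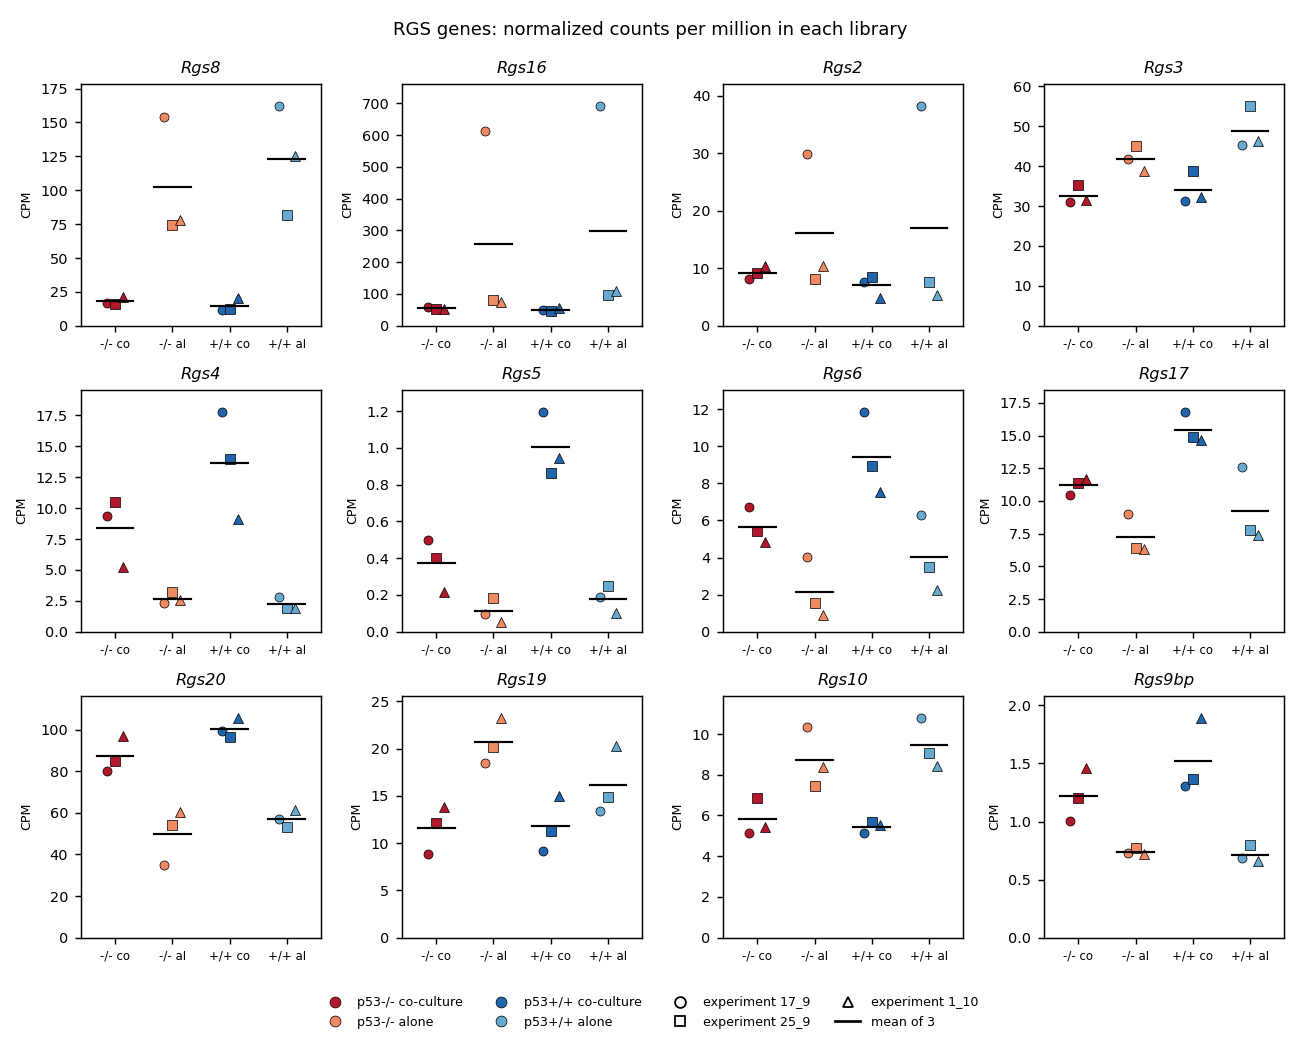
CPM (y axes, linear from 0) of 12 Rgs genes in each of the 12 libraries, by group (p53-/- co-culture, p53-/- alone, p53+/+ co-culture, p53+/+ alone, from left to right). Marker shape gives the experiment and the line the mean of 3; Rgs8 and Rgs3 are lower and Rgs4 and Rgs20 higher in co-culture without overlap, and Rgs16 and Rgs2 are high in the 17_9 libraries of NPCs alone.

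The RZ subfamily, whose members act on Gz and Gi alpha subunits, also split. Rgs20 had 80.3, 84.8 and 96.9 CPM in p53-/- co-cultures, against 34.7, 54.2 and 60.2 CPM in p53-/- NPCs alone, and 99.5, 96.4 and 106 CPM in p53+/+ co-cultures, against 56.9, 53.2 and 61.2 CPM in p53+/+ NPCs alone. It rose by 0.81 ± 0.17 (adjusted p = 0.00298) in p53-/- and 0.82 ± 0.17 (adjusted p = 0.00229) in p53+/+ NPCs, and these differed by less than their error. Rgs17 rose by 0.62 ± 0.22 (adjusted p = 0.0382) in p53-/- and 0.74 ± 0.21 (adjusted p = 0.0148) in p53+/+ NPCs. Rgs19 fell by 0.83 ± 0.22 (adjusted p = 0.0119) in p53-/- NPCs, where it had 8.81, 12.2 and 13.8 CPM in co-culture, against 18.5, 20.2 and 23.3 CPM alone. In p53+/+ NPCs its log2 fold change was -0.46 ± 0.22 (adjusted p = 0.123, and 0.00916 with the experiment as a block).

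R7 proteins work as dimers with the beta subunit Gnb5, and 3 of their 4 genes were tested. Rgs6 was higher in co-culture, with 6.71, 5.42 and 4.82 CPM in p53-/- co-cultures, against 4.02, 1.55 and 0.888 CPM in p53-/- NPCs alone, and 11.9, 8.91 and 7.53 CPM in p53+/+ co-cultures, against 6.31, 3.48 and 2.24 CPM in p53+/+ NPCs alone. In each group the 17_9 library was highest and the 1_10 library lowest. Rgs6 rose by 1.38 ± 0.47 (adjusted p = 0.0346) in p53-/- and 1.25 ± 0.45 (adjusted p = 0.0415) in p53+/+ NPCs. In p53-/- NPCs this call was lost without any one of 4 libraries (co-culture 17_9 or 25_9, alone 25_9 or 1_10, adjusted p from 0.0670 to 0.107), and the log2 value was 2.19 without the library of 17_9 alone. Rgs7 passed the threshold in neither genotype, with log2 fold changes of -0.31 ± 0.13 in p53-/- and -0.16 ± 0.13 in p53+/+ NPCs. Rgs9, known from retina and striatum, had 0.35 ± 0.22 in p53-/- and -0.43 ± 0.22 in p53+/+ NPCs and was not called. With the block, Rgs7 was lower in p53-/- (adjusted p = 0.0217) and Rgs9 lower in p53+/+ NPCs (adjusted p = 0.0398).

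Of the R12 subfamily, Rgs10, known from microglia and neurons, fell by 0.58 ± 0.19 (adjusted p = 0.0286) in p53-/- and 0.79 ± 0.19 (adjusted p = 0.00542) in p53+/+ NPCs. It had 5.16 to 6.88 CPM in p53-/- co-cultures, against 7.47 to 10.3 CPM in p53-/- NPCs alone, and 5.12 to 5.69 CPM in p53+/+ co-cultures, against 8.44 to 10.8 CPM in p53+/+ NPCs alone. Without experiment 17_9 its log2 fold change in p53-/- NPCs was -0.34 and not called (adjusted p = 0.266). Rgs12 was near 0 on the log2 scale, at 0.06 ± 0.14 in p53-/- and 0.08 ± 0.14 in p53+/+ NPCs. The membrane anchors of R7 proteins are Rgs7bp and Rgs9bp. Rgs9bp had a log2 fold change of 0.72 ± 0.29 in p53-/- NPCs (adjusted p = 0.0672, and 0.0440 with the block) and rose by 1.08 ± 0.29 (adjusted p = 0.00950) in p53+/+ NPCs. Rgs7bp had 0.50 ± 0.23 in p53-/- (adjusted p = 0.108, and 0.0136 with the block) and 0.36 ± 0.23 in p53+/+ NPCs (adjusted p = 0.234).

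The Gpr37 pair, orphan receptors of glia, rose in both genotypes. Gpr37l1, known from astrocytes, had 350.2, 344 and 284 CPM in p53-/- co-cultures, against 119.6, 209.9 and 161 CPM in p53-/- NPCs alone. In p53+/+ NPCs it had 517, 587 and 433 CPM in co-culture, against 192, 255 and 218 CPM alone. Its log2 fold change was 0.99 ± 0.19 (adjusted p = 0.00192) in p53-/- and 1.21 ± 0.19 (adjusted p = 0.000415) in p53+/+ NPCs. Gpr37, known from oligodendrocytes, had 9.16, 2.91 and 3.09 CPM in p53-/- co-cultures, against 1.65, 1.32 and 1.39 CPM in p53-/- NPCs alone. The p53+/+ NPCs had 7.30, 5.05 and 2.42 CPM in co-culture, against 1.19, 0.993 and 0.458 CPM alone. It rose by 1.80 ± 0.50 (adjusted p = 0.0145) in p53-/- and 2.49 ± 0.53 (adjusted p = 0.00286) in p53+/+ NPCs. Its increase in p53-/- NPCs leaned on the co-culture library of experiment 17_9, without which it was 1.04 (adjusted p = 0.106). Gpr37 was also not called in p53-/- NPCs without the whole experiment 17_9 (1.16, adjusted p = 0.0871) or without experiment 25_9.

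The astroglial filament gene Gfap moved with these genes: it had 4852 to 8205 CPM in p53-/- co-cultures, against 197 to 413.7 CPM in p53-/- NPCs alone, and 8649 to 15510 CPM in p53+/+ co-cultures, against 410.6 to 655.9 CPM in p53+/+ NPCs alone. Gfap is 1 of 16 tested markers of neural stem and progenitor cells and astroglia, and the list went both ways. In p53-/- co-cultures 4 rose and 2 fell (median log2 fold change 0.11), and in p53+/+ co-cultures 5 rose and 3 fell (median 0.17). The link of Gfap to the Gpr37 pair was not tested.

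The class C receptors Gpr158 and Gpr179 were higher in both genotypes. Gpr158, a glycine receptor that binds R7 proteins, had 15.4, 7.98 and 10.4 CPM in p53-/- co-cultures, against 1.99, 4.10 and 3.50 CPM in p53-/- NPCs alone, and rose by 1.82 ± 0.30 (adjusted p = 0.000667). The p53+/+ NPCs had 8.98, 6.69 and 8.16 CPM in co-culture, against 3.19, 2.28 and 2.80 CPM alone, a rise of 1.53 ± 0.30 (adjusted p = 0.00164). Gpr179, which anchors R7 proteins in retinal bipolar cells, had 21.8, 13.8 and 10.6 CPM in p53-/- co-cultures, against 5.57, 5.01 and 2.11 CPM in p53-/- NPCs alone, and rose by 1.85 ± 0.39 (adjusted p = 0.00299). In p53+/+ NPCs it had 29.9, 28.2 and 19.6 CPM in co-culture, against 12.2, 10.7 and 5.34 CPM alone, and rose by 1.46 ± 0.37 (adjusted p = 0.00753). The 1_10 library of Gpr179 was lowest in every group.

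Gpr83, a receptor of brain and regulatory T cells, had 3.85, 4.67 and 3.41 CPM in p53-/- co-cultures, against 1.45, 1.73 and 0.943 CPM in p53-/- NPCs alone, and 4.90, 4.68 and 4.53 CPM in p53+/+ co-cultures, against 1.25, 0.695 and 1.02 CPM in p53+/+ NPCs alone. The groups were apart in both genotypes. It rose by 1.52 ± 0.27 (adjusted p = 0.00126) in p53-/- and 2.26 ± 0.29 (adjusted p = 8.25e-05) in p53+/+ NPCs.

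**Figure D3:**
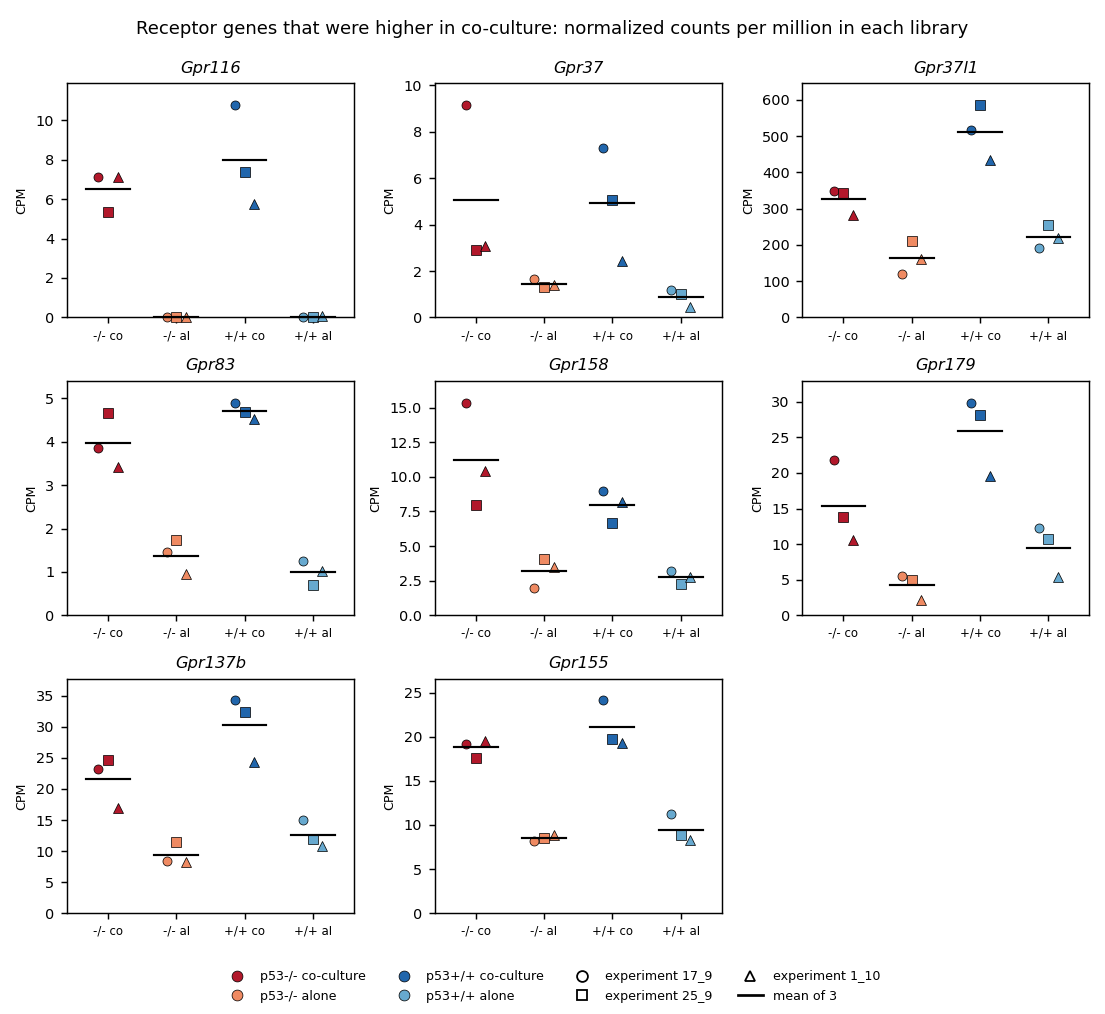
CPM (y axes, linear from 0) of 8 Gpr genes called higher in co-culture in both genotypes, in each of the 12 libraries by group, with p53-/- co-culture at the left and p53+/+ alone at the right of each panel. Marker shape gives the experiment and the line the mean of 3; Gpr116 lies between 5.32 and 10.8 CPM in co-culture and at or below 0.0508 CPM in NPCs alone.

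Adhesion receptors did not move together. Of 16 such members 9 were tested, of which 3 rose and 1 fell in p53-/- NPCs, and 2 rose and 2 fell in p53+/+ NPCs, with median log2 fold changes of 0.33 in p53-/- and 0.22 in p53+/+ NPCs. Gpr116 (Adgrf5), known from endothelium and lung epithelium, was nearly absent from NPCs alone. It had 7.11, 5.32 and 7.10 CPM in p53-/- co-cultures, against 0, 0.0455 and 0 CPM in p53-/- NPCs alone, and 10.8, 7.37 and 5.74 CPM in p53+/+ co-cultures, against 0, 0 and 0.0508 CPM in p53+/+ NPCs alone. That is 379 counts against 1 count in p53-/- NPCs, a depth-adjusted ratio of 410.0 (95% exact interval 73.2 to 16200), and 469 counts against 1 count in p53+/+ NPCs, a ratio of 440.0 (78.5 to 17400), where the intervals cover counting error only. Of 25 tested endothelial markers, 21 rose in p53-/- co-cultures, and 22 rose and 1 fell in p53+/+ co-cultures, with log2 fold changes in p53+/+ NPCs from -1.98 for Slco1a4 to 10.51 for Tie1. Pecam1 was at 8.13 to 18.0 CPM in co-culture libraries and at 0.102 to 0.484 CPM in NPCs alone.

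Gpr124 (Adgra2), a co-receptor of Wnt7 signals in brain endothelium, had 8.56, 7.38 and 6.88 CPM in p53-/- co-cultures, against 4.70, 4.19 and 3.22 CPM in p53-/- NPCs alone, and rose by 0.91 ± 0.23 (adjusted p = 0.00843). In p53+/+ NPCs it had 6.43, 6.73 and 4.79 CPM in co-culture, against 5.56, 3.72 and 3.76 CPM alone, with a log2 fold change of 0.47 ± 0.23 (adjusted p = 0.124, and 0.0345 with the block). Its relative Gpr123 (Adgra1) rose by 0.86 ± 0.25 (adjusted p = 0.0170) in p53-/- and 0.72 ± 0.24 (adjusted p = 0.0304) in p53+/+ NPCs. The third of them, Gpr125 (Adgra3), fell by 0.34 ± 0.10 (adjusted p = 0.0219) in p53-/- and 0.36 ± 0.10 (adjusted p = 0.0142) in p53+/+ NPCs. Without experiment 17_9, Gpr125 was still called lower in p53-/- NPCs (-0.42, adjusted p = 0.0426). It was then not called in p53+/+ NPCs (-0.31, adjusted p = 0.0826). Gpr98 (Adgrv1), a very large receptor whose human gene is mutated in Usher syndrome, had a log2 fold change of -0.03 ± 0.19 (adjusted p = 0.925) in p53-/- NPCs and fell by 0.96 ± 0.19 (adjusted p = 0.00166) in p53+/+ NPCs. Gpr56 (Adgrg1), which works in cortical development, had 592 to 667 CPM in p53-/- co-cultures, against 421 to 660.4 CPM in p53-/- NPCs alone, and 459.9 to 589.7 CPM in p53+/+ co-cultures, against 264 to 559.5 CPM in p53+/+ NPCs alone, and passed the threshold in neither genotype (log2 fold changes of 0.25 ± 0.24 in p53-/- and 0.22 ± 0.24 in p53+/+ NPCs). Gpr126 (Adgrg6), needed for myelination by Schwann cells, had log2 fold changes of -0.17 ± 0.16 in p53-/- and -0.25 ± 0.16 in p53+/+ NPCs. Gpr126 also counts among the members listed as known from endothelial, mural or microglial cells. Gpr97 (Adgrg3) had few counts and log2 fold changes of 0.91 ± 0.55 in p53-/- and -0.62 ± 0.87 in p53+/+ NPCs. Gpr115 (Adgrf4), also low, had 0.33 ± 0.47 in p53-/- and 0.46 ± 0.58 in p53+/+ NPCs, and neither gene was called.

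Among the 9 tested Gpr proteins of organelles or transport, 4 rose and 1 fell in p53-/- NPCs, and 6 rose and 1 fell in p53+/+ NPCs, with median log2 fold changes of 0.19 in p53-/- and 0.41 in p53+/+ NPCs. Gpr155, a cholesterol sensor of lysosomes, had 19.2, 17.6 and 19.6 CPM in p53-/- co-cultures, against 8.19, 8.51 and 8.82 CPM in p53-/- NPCs alone, and 24.1, 19.8 and 19.3 CPM in p53+/+ co-cultures, against 11.2, 8.84 and 8.34 CPM in p53+/+ NPCs alone. It rose by 1.14 ± 0.15 (adjusted p = 0.000174) in p53-/- and 1.16 ± 0.15 (adjusted p = 0.000113) in p53+/+ NPCs. The lysosomal Gpr137b rose by 1.2 ± 0.20 (adjusted p = 0.000900) in p53-/- and 1.28 ± 0.20 (adjusted p = 0.000410) in p53+/+ NPCs, but shares reads with its near-identical copy Gpr137b-ps, which rose by 0.54 ± 0.17 in p53-/- and 0.57 ± 0.17 in p53+/+ NPCs, so that the split between both is uncertain. Gpr137c rose by 1.23 ± 0.22 (adjusted p = 0.00129) in p53-/- NPCs and had 0.47 ± 0.22 (adjusted p = 0.103) in p53+/+ NPCs. The Golgi proteins Gpr107 and Gpr108 had 0.19 ± 0.10 and 0.11 ± 0.13 in p53-/- NPCs, uncalled, and rose by 0.31 ± 0.10 and 0.39 ± 0.13 in p53+/+ NPCs. Gpr180 fell by 0.64 ± 0.10 (adjusted p = 0.000690) in p53-/- and 0.36 ± 0.10 (adjusted p = 0.0154) in p53+/+ NPCs, with 21.9 to 23.9 CPM in p53-/- co-cultures, against 34.1 to 38.0 CPM in p53-/- NPCs alone. Without experiment 17_9, Gpr137b-ps was not called in p53-/- NPCs, at 0.31 (adjusted p = 0.266), and Gpr107, Gpr108 and Gpr180 were not called in p53+/+ NPCs (adjusted p from 0.0752 to 0.178).

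The remaining receptors were few and mostly low. Gpr146, Gpr153 and Gpr162 rose in both genotypes, by 0.60 to 1.11 in p53-/- and 0.73 to 1.02 in p53+/+ NPCs. Without experiment 17_9, Gpr153 and Gpr162 were not called in p53-/- NPCs (adjusted p = 0.231 and 0.0908), nor were Gpr146, Gpr162 and Gpr176 in p53+/+ NPCs (adjusted p from 0.0555 to 0.143). Gpr4, a proton sensor of endothelium, Gpr50, a relative of the melatonin receptors, and Gpr176 had log2 fold changes of 0.42 ± 0.32, 1.13 ± 0.57 and 0.70 ± 0.32 in p53-/- NPCs, uncalled, and rose by 1.2 ± 0.33, 2.36 ± 0.59 and 1.37 ± 0.34 in p53+/+ NPCs. With the block, Gpr50, Gpr176, Gpr75 and Gpr165 were also higher in p53-/- co-cultures (adjusted p from 0.0270 to 0.0359), and in p53+/+ co-cultures Gpr173 was higher and Gpr63 lower (0.0375 and 0.0355). Gpr161, the Hedgehog-related receptor of the primary cilium, had log2 fold changes of -0.15 ± 0.23 in p53-/- and -0.21 ± 0.23 in p53+/+ NPCs. Gpr17, a receptor of oligodendrocyte precursors, varied by experiment, with 0.823, 17.6 and 5.16 CPM in p53-/- NPCs alone and 0.312, 3.23 and 1.12 CPM in p53+/+ NPCs alone, and was not called in culture comparisons.

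Loss of p53 changed fewer members. In co-culture 2 members were higher (3.24% of all genes were) and 4 lower (4.93% of all genes were) in p53-/- than in p53+/+ NPCs. In NPCs alone 0 members were higher (2.02% of all genes were) and 3 lower (4.27% of all genes were). In NPCs alone 3 members were higher and 11 lower at an unadjusted p under 0.05 in edgeR, and DESeq2 called 0 members higher. Of all genes in NPCs alone 23.8% had such a p, in both directions together. With the experiment as a block, 3 members were higher and 10 lower in co-culture, against 9.99% and 10.9% of all genes, and 2 higher and 7 lower in NPCs alone, against 7.25% and 9.33% of all genes. None of the 17 tested Rgs genes was called by edgeR without the block or by DESeq2 in either culture. At an unadjusted p under 0.05 in edgeR, 1 Rgs gene was higher and 3 lower in co-culture, and 0 were higher and 1 lower in NPCs alone. In both directions together, 25.3% of all genes had such a p in co-culture and 23.8% in NPCs alone. With the block, Rgs7bp was higher and Rgs4 and Rgs5 were lower in co-culture, and Rgs6 was lower in NPCs alone (adjusted p from 0.0144 to 0.0418). The Gpr genes it added were Gpr37l1, Gpr179, Gpr137b and Gpr108, lower in co-culture (adjusted p from 0.00624 to 0.0425), and in NPCs alone Gpr146, Gpr179 and Gpr157, lower, and Gpr165 and Gpr17, higher (0.00171 to 0.0439).

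Gpr123 and Gpr75 were lower without p53 in both cultures (2.46% of all genes were). In the same fit, without the block, 0 members were higher in both (0.509% of all genes were), as it called 0 higher in NPCs alone. With the experiment as a block, Gpr179 was also lower in both cultures and Gpr165 was higher in both. The share of all genes called in both cultures was not counted with the block. Gpr123 (Adgra1), an adhesion receptor of neural tissue, had 19.1, 17.7 and 13.1 CPM in p53-/- co-cultures, against 36.9, 34.1 and 28.6 CPM in p53+/+ co-cultures. In NPCs alone it had 13, 8.15 and 6.21 CPM for p53-/-, against 21.8, 22.7 and 15.9 CPM for p53+/+. It fell by 1.00 ± 0.24 (adjusted p = 0.0252) in co-culture and 1.14 ± 0.25 (adjusted p = 0.0176) in NPCs alone, with no overlap of genotypes within a culture. Gpr75, whose human gene is linked to body weight, had 1.25, 1.36 and 0.921 CPM in p53-/- co-cultures, against 3.38, 2.14 and 2.37 CPM in p53+/+ co-cultures, and 0.533, 0.546 and 0.832 CPM in p53-/- NPCs alone, against 2.25, 1.54 and 1.42 CPM in p53+/+ NPCs alone. It fell by 1.15 ± 0.30 (adjusted p = 0.0352) in co-culture and 1.44 ± 0.33 (adjusted p = 0.0221) in NPCs alone. Its exons overlap those of Asb3 on the same strand in GENCODE M21, so reads of the 2 genes may not be separable.

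In NPCs alone, Gpr98 had 50.7, 48.0 and 57.6 CPM for p53-/-, against 109, 62.4 and 95.8 CPM for p53+/+, and fell by 0.77 ± 0.19 (adjusted p = 0.0288). In co-culture it had 54.3, 45.6 and 53.4 CPM for p53-/-, against 41.7, 41.0 and 54.8 CPM for p53+/+, a log2 difference of 0.16 ± 0.19 (adjusted p = 0.636). The p53+/+ libraries of NPCs alone were thus the only group above the others.

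In co-culture, Gpr85, a highly conserved brain receptor, had 5.0, 6.78 and 7.15 CPM for p53-/-, against 11.8, 12 and 10.1 CPM for p53+/+, and fell by 0.84 ± 0.23 (adjusted p = 0.0414). Gpr137, a lysosomal protein, had 39.7, 41.9 and 31.9 CPM for p53-/-, against 54.1, 59.2 and 49.3 CPM for p53+/+, and fell by 0.52 ± 0.15 (adjusted p = 0.0479), which is at the threshold. Higher without p53 were Gpr165, with 2.20, 0.954 and 1.73 CPM for p53-/-, against 0.327, 0.273 and 0.790 CPM for p53+/+ (1.81 ± 0.48, adjusted p = 0.0361), and Gpr97, a receptor of granulocytes, with 2.00, 1.25 and 1.19 CPM for p53-/-, against 0, 0.273 and 0.158 CPM for p53+/+ (3.26 ± 0.69, adjusted p = 0.0137). Gpr97 rests on 22 to 40 counts per p53-/- and 0 to 6 counts per p53+/+ library. No p53 half-site was found in the RefSeq promoters of these 7 genes, where 8.36% of all 32851 promoters hold one. Binding of p53 at these genes was not tested here. Ependymal markers moved with p53 too: of 5 tested, all 5 were lower in p53-/- NPCs alone and 3 in p53-/- co-cultures, and their part in the values above was not tested.

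**Figure D4:**
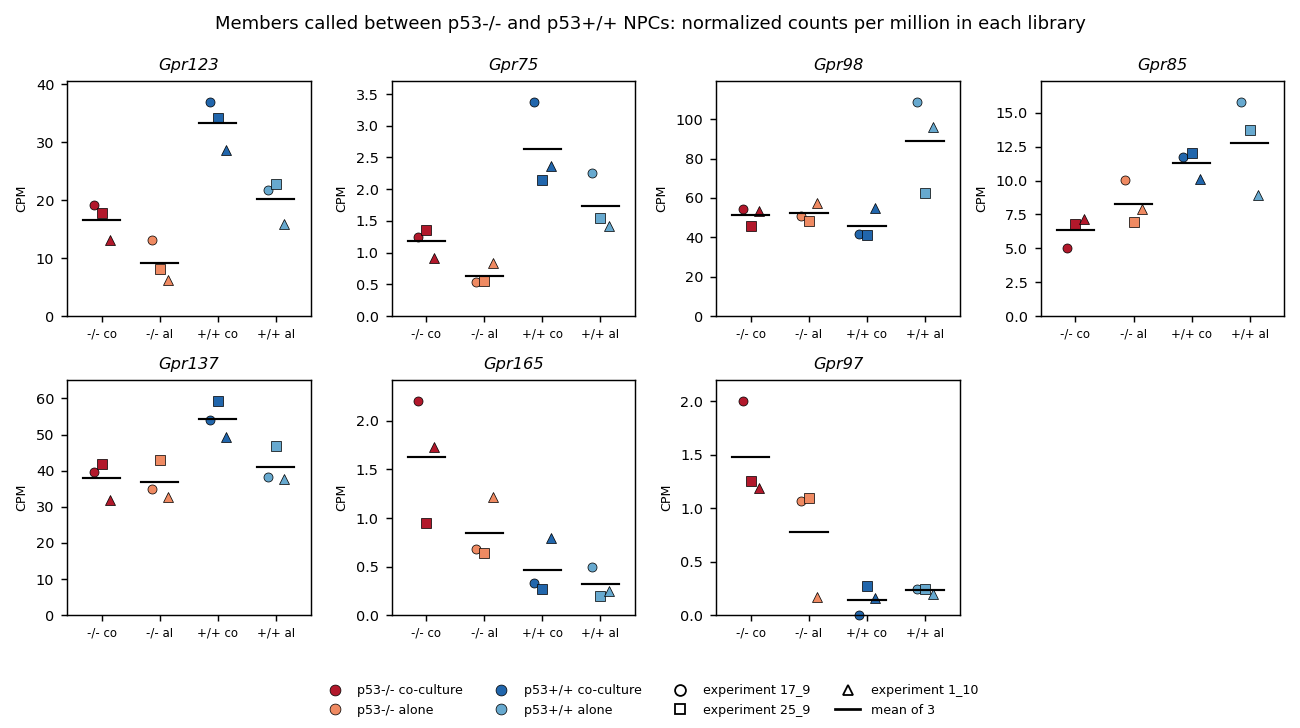
CPM (y axes, linear from 0) of the 7 members called between p53-/- and p53+/+ NPCs, in each of the 12 libraries by group, with p53-/- co-culture at the left and p53+/+ alone at the right of each panel. Marker shape gives the experiment and the line the mean of 3; Gpr123 and Gpr75 are lower in p53-/- libraries in both cultures, and Gpr98 is high in p53+/+ NPCs alone.

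Many of these p53 calls were lost when a single library was left out. Gpr123 in co-culture was not called without p53-/- co-culture 25_9 or 1_10 or p53+/+ co-culture 17_9 or 25_9 (adjusted p from 0.0684 to 0.115), and alone without p53-/- alone 25_9 or p53+/+ alone 17_9 or 25_9 (0.0501 to 0.0612). Gpr98 was lost without p53-/- alone 17_9 or 25_9 or p53+/+ alone 17_9 or 1_10 (0.0643 to 0.118), and Gpr75 alone without p53-/- alone 17_9 or 25_9 or p53+/+ alone 17_9 (0.0613 to 0.0860). In co-culture, Gpr75 and Gpr85 were each lost without any of the p53-/- co-culture libraries, p53+/+ co-culture 17_9 or 25_9, or p53+/+ alone 25_9 (adjusted p from 0.0512 to 0.176). Gpr165 was lost without p53-/- co-culture 17_9 or 1_10 or p53+/+ co-culture 17_9 or 25_9 (0.0921 to 0.167), and had a log2 value of 2.42 without p53+/+ co-culture 1_10. Gpr97 was lost without p53+/+ co-culture 17_9, with 2.72 (adjusted p = 0.0620), and had 4.10 without p53+/+ co-culture 25_9. Gpr137 was lost in 9 of the 12 fits without 1 library (0.0502 to 0.200). The direction stayed the same in all these fits.

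The effect of co-culture was not shown to differ between genotypes for any member. No member passed the test of the interaction with edgeR or DESeq2 (of all genes edgeR called 0% above and 0.0364% below 0). At an unadjusted p under 0.05 in edgeR, 3 of the 59 tested members were above and 1 was below 0. Of all genes 7.1% had such a p, in both directions together. Those 4 members were Gpr98 (0.93 ± 0.26, unadjusted p = 0.00376), Gpr137c (0.76 ± 0.31, unadjusted p = 0.0293), Rgs9 (0.78 ± 0.32, unadjusted p = 0.0293) and Rgs4 (-1.0 ± 0.44, unadjusted p = 0.0399), with adjusted p from 0.666 to 0.700 in edgeR.

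**Figure D5:**
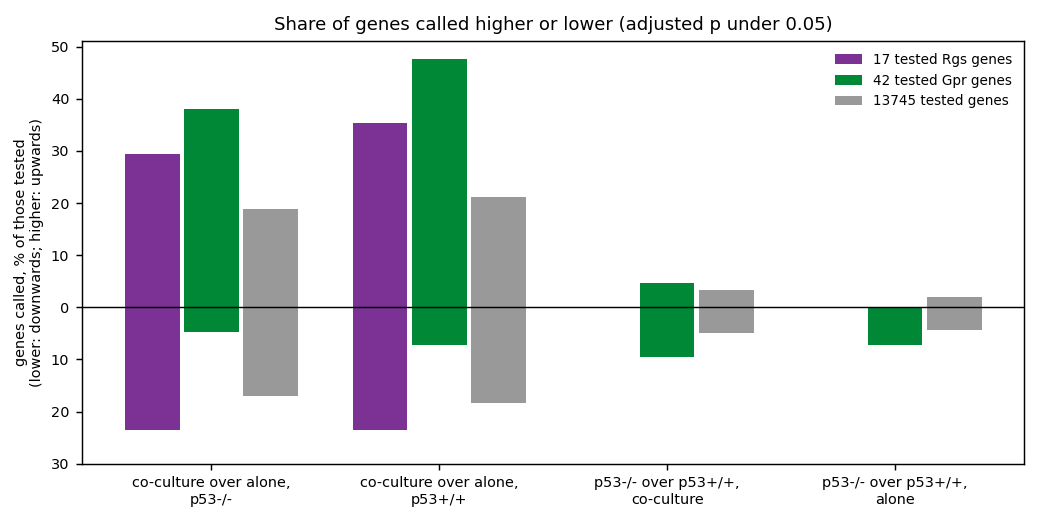
Share of genes called higher (bars upwards) and lower (bars downwards) in 4 comparisons, in percent of those tested, for 17 Rgs genes, 42 Gpr genes and all 13745 genes. In co-culture over NPCs alone the Gpr genes have 38.1% higher and 4.76% lower in p53-/- NPCs and 47.6% higher and 7.14% lower in p53+/+ NPCs. For p53-/- over p53+/+ no Rgs gene is called in the fit shown, which is without the experiment as a block.

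Other parts of the G-protein pathway, from lists of genes outside the members, held called genes in both directions. Over all genes tested, 18.8% rose and 17.0% fell in p53-/- NPCs, and 21.2% rose and 18.3% fell in p53+/+ NPCs. The counts in this and the next paragraph stand beside these shares, and the lists are short. The median log2 fold change of the lists of subunits, kinases, arrestins and effectors lay between -0.03 and 0.16 in p53-/- and between -0.10 and 0.20 in p53+/+ NPCs, and that of the further adhesion and orphan receptors at 0.47 and 0.52 in p53-/- and at 0.34 and 0.53 in p53+/+ NPCs. Of 12 tested alpha subunits, 2 rose and 2 fell in p53-/- (16.7% each) and 3 rose and 3 fell in p53+/+ NPCs (25% each). Among them Gna14, of the Gq class, fell by 0.94 ± 0.34 in p53-/- and 1.93 ± 0.35 in p53+/+ NPCs, and Gnal, of the Gs class, rose by 0.88 ± 0.29 in p53-/- and 1.19 ± 0.28 in p53+/+ NPCs. Of 11 tested beta and gamma subunits, 2 rose and 1 fell in p53-/- and 4 rose and 1 fell in p53+/+ NPCs. Gng7 averaged 21.9 ± 3.5 CPM in p53-/- co-cultures, against 8.91 ± 1.1 CPM in p53-/- NPCs alone (SD, n = 3 each), and Gnb5, the partner of R7 proteins, had log2 fold changes of 0.24 ± 0.12 (adjusted p = 0.133) in p53-/- and 0.41 ± 0.12 (adjusted p = 0.0149) in p53+/+ NPCs.

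Of 12 tested adenylyl cyclases and phospholipases C beta, 4 rose in p53-/- and 3 rose and 1 fell in p53+/+ NPCs. Adcy9 rose by 1.38 ± 0.19 in p53-/- and 1.41 ± 0.18 in p53+/+ NPCs, and Adcy8 by 0.79 ± 0.19 in p53-/- and 1.31 ± 0.20 in p53+/+ NPCs. Of 8 receptor kinases and arrestins, 3 rose and 2 fell in p53-/-, and 1 rose and 1 fell in p53+/+ NPCs. The arrestin Arrb1 rose by 0.87 ± 0.20 in p53-/- and 1.32 ± 0.20 in p53+/+ NPCs, and the kinase Grk6 fell by 0.61 ± 0.14 in p53-/- and 0.78 ± 0.14 in p53+/+ NPCs. Other proteins with an RGS domain had 3 higher and 1 lower of 9 in p53-/-, and 1 higher and 2 lower in p53+/+ NPCs, with the Wnt scaffold Axin1 lower in both (-0.46 ± 0.15 in each). Of 5 tested activators and exchange factors of G proteins, 1 fell in each genotype. Adhesion receptors under other symbols rose in 6 and fell in 1 of 11 in p53-/-, and rose in 4 and fell in 1 in p53+/+ NPCs, with Celsr2 at 0.98 ± 0.14 in p53-/- and 0.89 ± 0.14 in p53+/+ NPCs. In a list of 25 further receptors, 8 rose and 2 fell of 21 tested in p53-/-, and 10 rose and 3 fell in p53+/+ NPCs, among them the cannabinoid receptor Cnr1, which fell by 0.91 ± 0.15 in p53-/- and 1.37 ± 0.15 in p53+/+ NPCs, and the lysophosphatidic acid receptor Lpar1, which rose by 0.72 ± 0.20 in p53-/- and 1.22 ± 0.20 in p53+/+ NPCs.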

How the data were processed

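Per the labels and the study's methods, paired-end reads of stranded mRNA libraries were aligned by the authors to mm9 with TopHat2 2.0.11 and assigned to genes with HTSeq 0.6.1. Neither the annotation version nor the strand setting is given in the sources used here, and exons of 21 tested members overlap those of another gene, so reads of overlapping genes may not be separable. The authors deposited raw read counts per gene for 12 libraries, which were used as they stand, with 0 columns left unused. No 2 libraries of a group were duplicates (variance of 13.3 to 62.6 times counting noise over 12 pairs).

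Counts were normalized by TMM and filtered with filterByExpr, which left 13745 of 18810 genes with a count. The quasi-likelihood test of edgeR 4.0.16 (limma 3.58.1, R 4.3.3) was fitted over all 12 libraries with 1 coefficient per group, and p-values were adjusted by Benjamini-Hochberg over all genes tested within each comparison. CPM values use TMM library sizes, so low members, with few counts at depths of 16509710 to 22245224, are imprecise. The code was tested on simulated data. Alternatives were DESeq2 1.42.0, its size factors, library size alone, a fit without any filter, a minimum of 10 counts per gene and library, only the groups compared, a replicate block, and leaving out libraries or experiments.

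The key of the study's counts table says that equal experiment numbers are paired. Deviations from group means correlated at r = 0.128 to 0.618 over 18 same-number pairs and at -0.608 to 0.241 over 36 other pairs, so the experiments pair the libraries. The main fit and the fits without a library or an experiment have no term for this pairing. Spread between experiments thus stays in their error, and calls that differ with the experiment as a block are given beside them.

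Values in every library are given for Rgs8, for members called with p53 (mean of at least 0.5 CPM), and for the 8 called members with the largest change per culture comparison (mean of at least 1 CPM). The RGS subfamilies, the Gpr37 pair and the adhesion receptors are described member by member. Pathway genes were named among up to 4 called per list, and Gnb5 was added as the partner of R7 proteins. Members and lists were chosen with earlier results of these data known. All 114 symbols matched RefSeq genes (16 under another symbol), and 80 had a promoter. Figures were drawn with matplotlib 3.10.9. The values of 1 tested member are not reported here, and it is kept in the counts.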

Additional observations from a re-analysis of the deposited data

How the results depend on the processing

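None of the 25 gene results followed through all alternatives changed sign, whereas Rgs2, not called, turned from negative to positive in both genotypes without experiment 17_9. Of these 25, 24 kept their call with DESeq2 size factors, with library size alone and without a filter, and 24 of 24 with DESeq2. With at least 10 counts in every library 18 of 19 kept it, and with only the groups compared 22 did. Gpr137 in co-culture was the one lost by scaling or filter (adjusted p from 0.0504 to 0.0878), and Gpr123, Gpr75 and Gpr98 in NPCs alone were lost with only the groups compared (0.0693 to 0.0707). The replicate block gave 2 members higher and 7 lower in p53-/- than p53+/+ NPCs alone, and 10 lower in co-culture, and it changed no other call of a member than those given above. For NPCs alone, DESeq2 gave 5 members lower with loss of p53 and the fit of only the groups compared gave 0. With at least 10 counts in every library 0 were higher in co-culture with loss of p53. That filter removed Gpr165 and Gpr97, the members called higher there, as both had libraries under 10 counts, so it did not test them.

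Over 15 fits that each left out a library or an experiment, members higher in co-culture ranged from 12 to 22 in p53-/- and from 11 to 27 in p53+/+ NPCs, and members lower from 2 to 7 in p53-/- and from 2 to 8 in p53+/+ NPCs. With loss of p53, 0 to 2 were higher and 0 to 5 lower in co-culture, and 0 to 0 were higher and 0 to 4 lower in NPCs alone. Without p53-/- alone 25_9, p53+/+ alone 17_9 or experiment 25_9, 0 were lower in NPCs alone, and without experiment 17_9 1 was. In co-culture, members lower with loss of p53 numbered 1 without p53-/- co-culture 17_9, p53+/+ alone 25_9 or experiment 17_9 or 1_10, and 0 without p53-/- co-culture 25_9 or 1_10, p53+/+ co-culture 17_9 or 25_9, or experiment 25_9. Members higher numbered 1 without p53-/- co-culture 17_9 or 1_10, p53+/+ co-culture 25_9 or experiment 1_10, and 0 without p53+/+ co-culture 17_9 or experiment 17_9 or 25_9. The shares of all genes called in these fits are not given here, so the counts cannot be set against them. No member passed the interaction in any of these fits. Among the gene results followed, several were lost without a whole experiment. Without experiment 25_9, Gpr179 (adjusted p = 0.0927) and Rgs16 were lost in p53+/+ NPCs, and Gpr37 and Rgs6 in p53-/- NPCs. That fit also lost every call with loss of p53. Gpr37 in p53-/- NPCs and Gpr97 were lost without experiment 17_9, and Rgs6 in p53-/- NPCs without experiment 1_10. The p53 calls of Gpr75, Gpr85, Gpr98, Gpr137 and Gpr165 were lost without each of the experiments in turn. With 3 libraries per group the spread was shared over groups, a group left with fewer libraries is assumed to vary like the others, and members under about 1 CPM rest on few counts.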
